A study of Mus musculus with 16 samples.

Results

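The Skint genes encode transmembrane proteins of the immunoglobulin superfamily that are related to butyrophilins and are made by keratinocytes and thymic epithelium. The members described here are the 10 Skint genes that had a probe on the array, namely Skint1, Skint3, Skint4, Skint5, Skint6, Skint7, Skint8, Skint9, Skint10 and Skint11, of 20832 genes named on it. They were read by 13 probes, because Skint3, Skint4 and Skint7 had a brighter and a dimmer probe each. Skint2 had no named probe and was not analysed here. The family was picked out because its members were low in db/db against WT wounds in these arrays, so the difference between those groups is given as a description with no test.

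Skint1 is required in the thymus for the selection of the γδ T cells that settle in mouse epidermis, and mice with a broken Skint1 gene lack the usual cells. These epidermal T cells touch neighbouring keratinocytes, sense their damage and release growth factors that help a wound to close. The genes lie in 1 block on mouse chromosome 4, and less is known of what the other members do in skin.

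Wounds of 4 groups of female mice were read in 1 colour on 16 arrays, with 2 arrays for each group on each of 2 labelled days, day 7 and day 14. WT mice were C57BL/6J, and db/db mice carried 2 copies of a mutant leptin receptor allele on the C57BLKS/J strain, a model of type 2 diabetes. The db/db + estrogen mice received estradiol benzoate in sesame oil on the wound, the db/db + vehicle mice received the oil alone, and the db/db group was wounded and left without treatment. RNA came from the whole wound with the skin around it. Strain and diabetes differ together between WT and the other groups, so they cannot be told apart, and no treated WT group was compared. A group is named here by the day on its label. The 2 days appear exchanged between the labels and the study's own tables, and which is right was not settled, so the labelled days are compared as labels and no order in time is read from them. Nothing in the labels ties the arrays to separate animals, so p-values measure the spread between arrays.

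A level is the log2 of a probe's signal relative to the 75th percentile of its array, so 0 is the brightness of that percentile and each step of 1 is 2-fold. Levels of different probes are not comparable. The 75th percentile ran from 1091 to 2548 over the arrays and was lowest on the WT array of labelled day 14, replicate 2. From 70.1% to 79.0% of an array's probes were marked well above background, and 0 probes were saturated. In these tissue samples, fewer cells of a type and less RNA per cell cannot be told apart. Whether the probes match the C57BLKS/J sequence of their genes was not tested. Differences between WT and db/db mice are therefore differences of signal, which need not be differences of RNA.

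Skint3, Skint4 and Skint11 were read in WT wounds and were not well above background in untreated db/db wounds. The brighter Skint3 probe had levels of 1.64 and 2.20 in WT on labelled day 7 and of 2.37 and −0.08 on labelled day 14. In untreated db/db wounds the same probe read −9.53 and −9.06 on labelled day 7 and −9.64 and −9.16 on labelled day 14, all 4 not well above background. The lowest WT array lay far above the highest db/db array. The WT mean was at least 641-fold higher on labelled day 7 and at least 338-fold higher on labelled day 14. These bounds set the db/db mean at the lowest signal that counted as well above background on each array, or at the probe's own signal where that was higher.

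The dimmer Skint3 probe read −4.03, −3.99, −4.39 and −5.82 in the 4 WT arrays and between −9.60 and −9.00 in untreated db/db wounds, where it was not well above background on any array. It gave bounds of at least 10.5-fold and at least 4.44-fold for the labelled days 7 and 14. Both probes of the gene therefore separated the same arrays. Skint4 behaved alike on its brighter probe, with WT levels of 0.65 and 0.45 on labelled day 7 and of 0.17 and −1.66 on labelled day 14. Its untreated db/db levels were −9.28, −8.86, −9.05 and −8.87, and the bounds were at least 248-fold and at least 91.0-fold. No WT array came near a db/db array on this probe.

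The dimmer Skint4 probe read −1.50, −1.68, −3.02 and −4.22 in WT and between −9.25 and −9.02 in untreated db/db wounds. Skint11 read −1.76 and −1.74 in WT on labelled day 7, −2.27 and −4.35 on labelled day 14, and between −9.76 and −9.26 in untreated db/db wounds. Its WT mean was at least 50.5-fold higher on labelled day 7 and at least 15.4-fold higher on labelled day 14. Thus 5 of the 13 probes were well above background on all 4 WT arrays and on 0 of the 4 untreated db/db arrays, where 152 of the 27720 probes read on all 4 WT arrays (0.548%) did the same. The dimmer Skint3 probe, the dimmer Skint4 probe and Skint11 were not well above background on any of the 12 arrays of db/db mice, treated or not, a pattern of 24 probes in all (0.0866%).

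**Figure D1:**
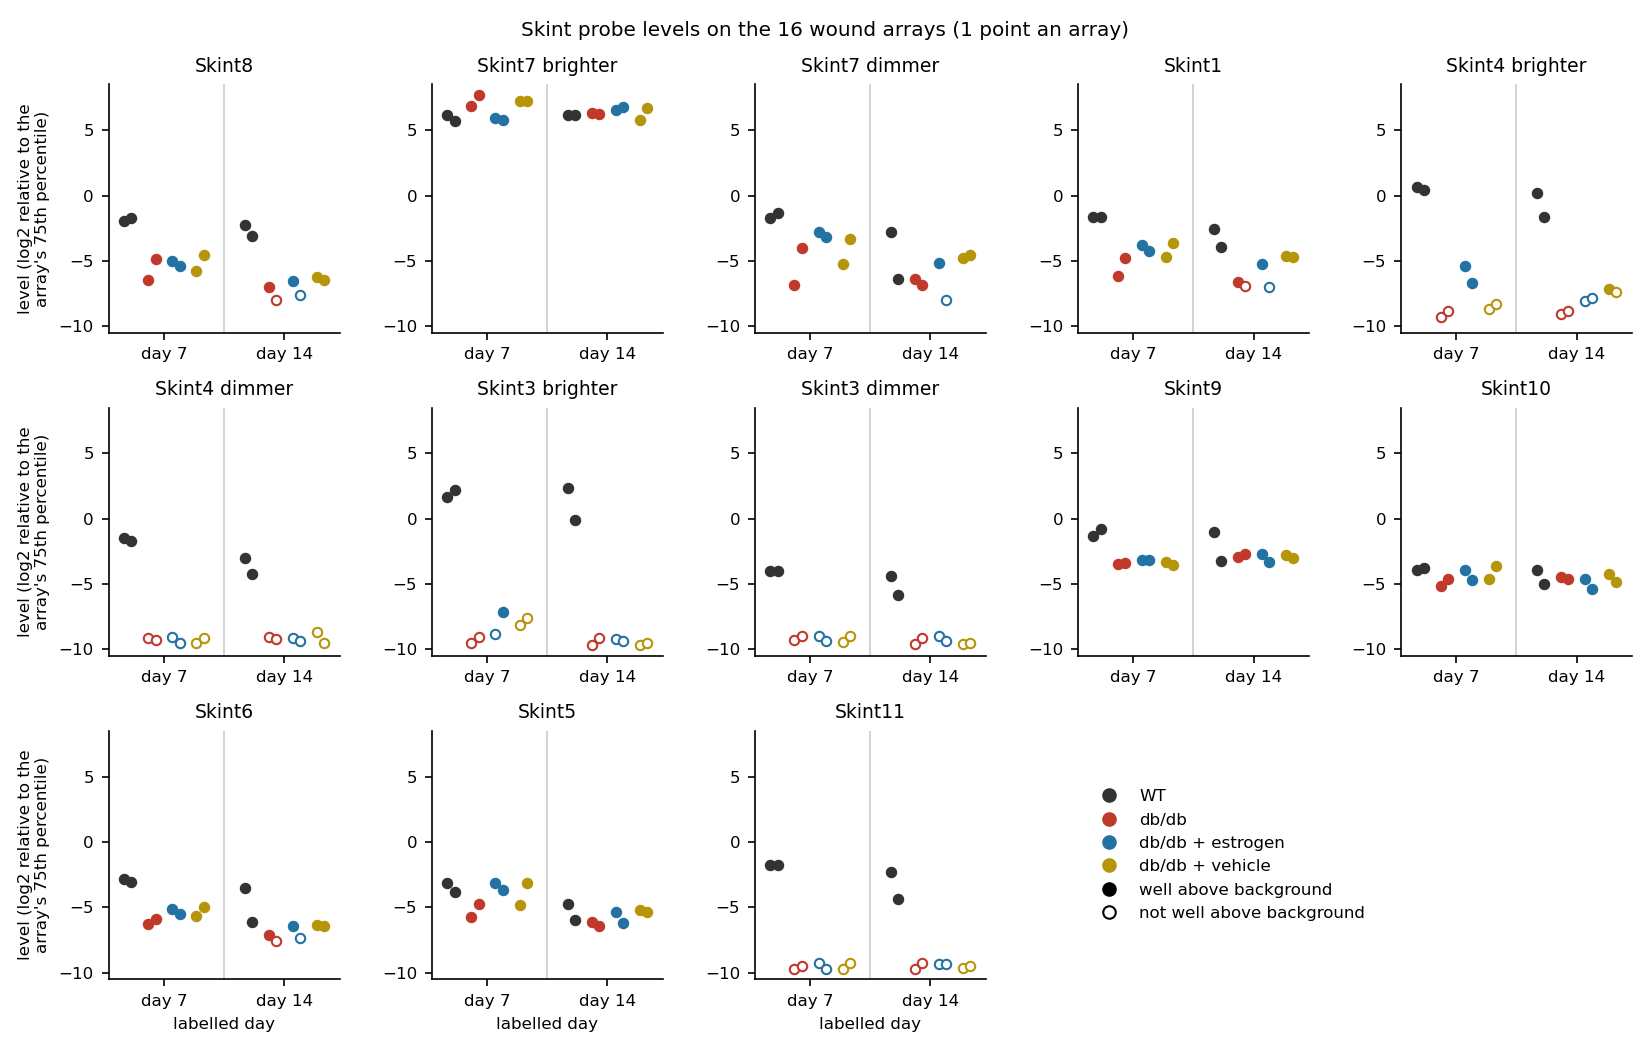
Level of each Skint probe on the 16 arrays, on the log2 scale relative to the array's 75th percentile, with 1 point an array, the groups set apart by colour and the labelled days along the x axis. The probes of Skint3, Skint4 and Skint11 lie near −9 in untreated db/db wounds and between −5.82 and 2.37 in WT wounds, while the brighter Skint7 probe stays between 5.70 and 7.71 in every group.

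Members that were not read in untreated db/db wounds share promoter sequence with members that were, so promoters are shown for 3 of the former and for 2 measured members that share a stretch with them. All 10 members had a promoter in the RefSeq table for GRCm38.p6, which covers 250 bases before to 50 bases after a gene's start, and Skint4 had 2 starts. The reference genome is that of C57BL/6J, the strain of the WT mice, and C57BLKS/J sequence was not analysed here. Searching these promoters for identical stretches of at least 12 bases joined them into 3 groups. The groups were Skint7 with Skint8, then Skint1, Skint3, the second start of Skint4, Skint5 and Skint6, and last Skint9, Skint10 and Skint11. The promoter of the first Skint4 start joined no group. The capitals mark the run AGTACTTGAGTAAT in the first 3 promoters and the run TGACTTTCATAAA in the last 2. The Skint3 promoter lies at chr4:112231995-112232294 on the plus strand, that of the second Skint4 start at chr4:112081220-112081519 on the plus strand, and that of Skint5 at chr4:113999454-113999753 on the minus strand. The Skint11 promoter lies at chr4:114163134-114163433 on the plus strand and the Skint10 promoter at chr4:112774812-112775111 on the minus strand. Each is written from 5′ to 3′ along its gene.
Skint3: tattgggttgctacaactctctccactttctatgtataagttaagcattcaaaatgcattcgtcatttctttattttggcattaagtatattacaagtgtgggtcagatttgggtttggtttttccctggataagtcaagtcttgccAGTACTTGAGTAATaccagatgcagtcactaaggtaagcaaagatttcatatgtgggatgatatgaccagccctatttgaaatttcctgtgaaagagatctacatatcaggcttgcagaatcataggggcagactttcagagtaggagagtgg
Skint4: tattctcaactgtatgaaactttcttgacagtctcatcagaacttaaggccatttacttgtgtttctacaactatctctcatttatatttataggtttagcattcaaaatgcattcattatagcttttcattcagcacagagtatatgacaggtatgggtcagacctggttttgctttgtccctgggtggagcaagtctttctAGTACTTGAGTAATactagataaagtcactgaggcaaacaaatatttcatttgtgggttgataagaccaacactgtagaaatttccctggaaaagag
Skint5: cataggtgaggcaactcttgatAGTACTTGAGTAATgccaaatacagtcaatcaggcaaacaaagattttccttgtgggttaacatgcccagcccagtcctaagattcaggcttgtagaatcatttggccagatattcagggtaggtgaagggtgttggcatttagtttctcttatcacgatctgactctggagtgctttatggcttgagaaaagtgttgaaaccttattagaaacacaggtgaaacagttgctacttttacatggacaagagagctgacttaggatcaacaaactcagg
Skint11: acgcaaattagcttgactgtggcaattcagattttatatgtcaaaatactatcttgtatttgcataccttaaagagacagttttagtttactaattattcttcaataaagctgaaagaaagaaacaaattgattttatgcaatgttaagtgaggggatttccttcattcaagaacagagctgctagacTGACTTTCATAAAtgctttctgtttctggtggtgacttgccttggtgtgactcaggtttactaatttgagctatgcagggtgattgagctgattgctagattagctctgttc
Skint10: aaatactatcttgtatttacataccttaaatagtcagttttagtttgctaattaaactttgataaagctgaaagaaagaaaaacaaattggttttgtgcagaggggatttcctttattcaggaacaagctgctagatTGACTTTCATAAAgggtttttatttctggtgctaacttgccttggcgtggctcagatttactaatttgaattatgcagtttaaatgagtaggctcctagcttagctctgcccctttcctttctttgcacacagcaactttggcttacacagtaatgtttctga

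The run AGTACTTGAGTAAT was in 5 of 32544 distinct promoters of the same length on either strand (0.0154%), all of them Skint promoters. It began 103 bases before the start of Skint3, 47 before the second start of Skint4, and 228 before the starts of Skint5 and Skint6. TGACTTTCATAAA was in 3 promoters (0.00922%), those of Skint9, Skint10 and Skint11. Since both runs were found in these sequences, their rarity is no result. Local alignment paired 300 bases of Skint5 and Skint6 at 89.7% identity, 244 of Skint10 and Skint11 at 86.1%, and 238 of Skint3 and the second Skint4 start at 81.5%. The promoter groups did not follow the split in level: Skint3 and Skint4 were not read in untreated db/db wounds while Skint1, Skint5 and Skint6 were, and Skint11 was not read while Skint9 and Skint10 were. The letters TATAAA were in the promoters of 7 of the 10 genes and in 13.6% of all promoters, either strand counted. AGGTCA, the core of the site bound by estrogen receptors, was in 0 of the 11 Skint promoters and in 16.2% of all.

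Skint1, Skint6, Skint8 and the dimmer Skint7 probe were lower in untreated db/db than in WT wounds but were still read on labelled day 7. Skint1 had levels of −1.63 and −1.63 in WT against −6.15 and −4.78 in db/db on labelled day 7, and of −2.58 and −3.96 against −6.63 and −6.92 on labelled day 14, the last not well above background. The WT mean was 14.3-fold higher on labelled day 7 and 11.3-fold higher on labelled day 14, and no arrays overlapped. On labelled day 7, where each of 2 slides held 1 array of every group, the difference was −4.52 on slide 1 and −3.15 on slide 2. On labelled day 14 the WT and db/db arrays lay on separate slides, so slide and group cannot be told apart there for any member.

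Skint8 read −1.96 and −1.75 in WT against −6.48 and −4.85 in db/db on labelled day 7, and −2.28 and −3.13 against −7.00 and −8.03 on labelled day 14, where the lowest array was not well above background. The WT mean was 14.0-fold higher on labelled day 7 and, with the dim array at its floor, at least 19.6-fold higher on labelled day 14. Skint6 read −2.86 and −3.04 against −6.32 and −5.90 on labelled day 7, a fold of 8.94 with the arrays apart. It read −3.49 and −6.13 in WT against −7.09 and −7.58 on labelled day 14, the last not well above background, at least 4.70-fold with the dimmest WT array close to the db/db arrays. The dimmer Skint7 probe read −1.74 and −1.35 in WT against −6.82 and −4.05 in db/db on labelled day 7. It read −2.79 and −6.38 against −6.42 and −6.82 on labelled day 14, so that the WT array of replicate 2 lay next to the db/db arrays.

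Skint5, Skint9 and Skint10 differed least among the probes that were lower. Skint5 read −3.11 and −3.82 in WT against −5.76 and −4.77 in db/db on labelled day 7 (3.47-fold), and −4.75 and −6.01 against −6.13 and −6.40 on labelled day 14 (1.85-fold). The WT arrays of labelled day 14 were lower than both WT arrays of labelled day 7. Skint9 read −1.32 and −0.77 in WT against −3.43 and −3.40 in db/db on labelled day 7 (5.17-fold), with the groups apart, and −1.01 and −3.25 against −2.93 and −2.68 on labelled day 14, where they overlapped. Skint10 read −3.95 and −3.75 against −5.14 and −4.63 on labelled day 7, a fold of 2.05 that lies just above the threshold of 2 used for counts. Its levels of −3.94 and −5.02 in WT overlapped with −4.45 and −4.63 in db/db on labelled day 14. Without WT replicate 1 of labelled day 14, the Skint9 and Skint10 differences turned to 0.44 and 0.48.

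The brighter Skint7 probe went the other way from all of these on labelled day 7. It read 6.17 and 5.70 in WT against 6.83 and 7.71 in db/db, a mean 2.52-fold higher in db/db, and the groups did not overlap. It read 6.14 and 6.16 in WT and 6.30 and 6.23 in db/db on labelled day 14, 1.08-fold apart. The 2 Skint7 probes thus disagreed on labelled day 7, with log2 differences of 1.33 and −3.89. Levels of the brighter probe correlated over the 16 arrays most closely with those of Sema4c (r = 0.997), Itsn1 (r = 0.996) and Sp110 (r = 0.995). Over the 12 arrays of db/db mice its r with the dimmer Skint7 probe was −0.09. These values are a description over arrays that share their groups. Whether the brighter probe reads Skint7 at all, and which transcripts each probe reads, was not tested.

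Counted over all probes, 12 of 13 were over 2-fold lower in db/db on labelled day 7, where 10.2% of all probes were, and 1 was over 2-fold higher, where 6.50% were. On labelled day 14, 9 of 13 were over 2-fold lower, where 17.6% of all probes were, and 0 were over 2-fold higher, where 3.24% were. The median log2 difference of the Skint probes was −3.84 on labelled day 7 and −3.50 on labelled day 14, with −0.048 and −0.123 over all probes tested. As the family was chosen on this difference, nothing is read from these counts.

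**Figure D2:**
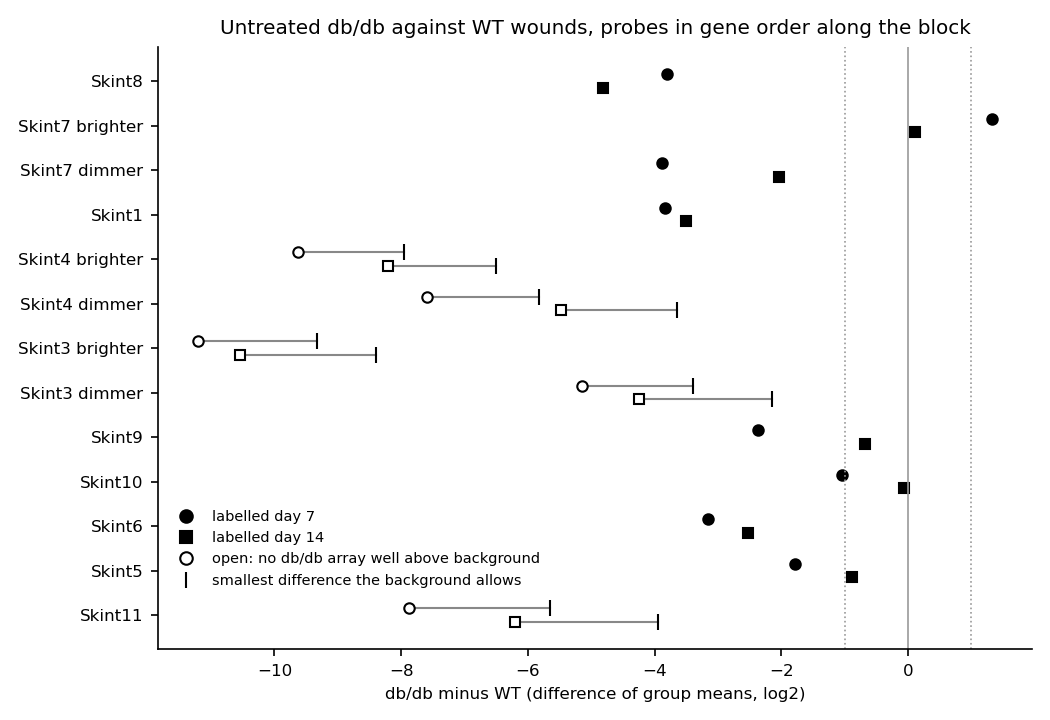
Difference of the group means, untreated db/db minus WT, in log2 for each Skint probe, in the order of the genes along the block on chromosome 4 and for both labelled days. Probes of Skint3, Skint4 and Skint11 lie between −11.21 and −4.25, Skint10 lies at −1.04 and −0.06, and the brighter Skint7 probe lies at 1.33 and 0.11.

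Most of the genes beside the block did not pass the test between db/db and WT. Along chromosome 4 the order is Skint8, Skint7, Skint1, Skint4, Skint3, Skint9, Skint2, Skint10, Skint6, Skint5 and Skint11, so that measured members stand between those that were not read in untreated db/db wounds. Of the 15 genes on each side with a probe, 5 of 29 tested were lower and 1 was higher in db/db on labelled day 7 by an unadjusted limma p of 0.05 and a fold of 2, where 7.85% and 6.27% of all genes were. For labelled day 14, 5 of 28 were lower and 0 higher, where 9.93% and 2.75% of all genes were. Their median log2 difference was −0.10 and −0.29, with −0.018 and −0.041 over all genes. Slc5a9, a sodium-dependent sugar transporter and the gene next to Skint8, fell by 2.27 (SE 0.30, adjusted p = 0.0020 by limma) and by 2.70 (SE 0.30, adjusted p = 0.00061). Elavl4, an RNA-binding protein of neurons, rose by 2.40 on labelled day 7 (SE 0.61, adjusted p = 0.031). Slc5a9 and Trabd2b, on the 2 flanks, were both well above background on all 4 WT arrays and on all 12 arrays of db/db mice.

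Some markers of the cells that make Skint proteins were also lower in db/db wounds on labelled day 7, but were read on every array. Of 30 genes of basal and suprabasal keratinocytes, 8 fell and 0 rose in db/db against WT on each labelled day, where 7.85% of all genes fell and 6.27% rose on labelled day 7, and 9.93% and 2.75% on labelled day 14. Krt5, a keratin of the basal layer, differed by −0.62 (SE 0.30, adjusted p = 0.21 by limma) and Krt14, its partner, by −0.51 (SE 0.41, adjusted p = 0.44) on labelled day 7. All 30 were well above background on all 16 arrays. The mean level of the list was 2.33 to 2.52 in WT and 1.00 to 1.76 in db/db on labelled day 7, and 1.49 to 2.66 and 1.14 to 1.64 on labelled day 14. Of 27 granular layer genes, 9 fell on labelled day 7 and 2 on labelled day 14, the latter within the share of all genes, and of 24 hair follicle and sebaceous gland genes tested, 16 and 8 fell. Of 12 genes of Langerhans and dendritic cells, the other immune cells of the epidermis, 7 and 5 fell, and Cd207, which marks Langerhans cells, differed by −1.19 (SE 0.98, adjusted p = 0.45) on labelled day 7. Neutrophil genes moved the other way, with 11 of 14 higher on labelled day 7 and 5 higher and 1 lower on labelled day 14, and of 13 genes of monocytes and macrophages 8 and 5 were higher and 2 lower on each day. The part of all these cells in the Skint differences was not tested.

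The T cells that depend on Skint1 were looked at through a list of 41 of their genes, 36 of which had a probe. Of 33 tested, 10 fell and 3 rose in db/db against WT on labelled day 7, and 8 fell and 1 rose on labelled day 14, to be read against the same shares of all genes. Between 30 and 35 of the 36 genes were well above background on an array. Lower levels were not particular to this list. Of 20 genes of alpha beta T cells and lymphoid cells, 9 fell and 2 rose on labelled day 7 (median difference −1.3). On labelled day 14, 5 of those 20 fell and 0 rose (median difference −1). Which T cells the genes named below came from was not tested. Cd3e, a chain of the T cell receptor complex shared by all T cells, differed by −0.67 (SE 0.32, adjusted p = 0.20 by limma), while Cd3g, another chain, fell by 2.25 (SE 0.56, adjusted p = 0.028). Il2rb, a receptor chain for interleukins that keep these cells alive, fell by 1.43 (SE 0.52, adjusted p = 0.099, past the unadjusted threshold alone). Ctla2a, Fcer1g and Ptprc rose by 2.47, 1.18 and 1.18 on labelled day 7, and Fcer1g and Ptprc are also made by other leukocytes. Gzmb, a killing enzyme, and Ifng, a cytokine, fell by 2.09 and 3.57 on labelled day 14 (adjusted p = 0.028 and 0.021). No probe was named for Trdc or Itgae, and Klrk1, the receptor NKG2D, was too dim to test between these groups.

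A further list held other molecules through which keratinocytes are read by these T cells. Of 20 tested, 6 fell and 2 rose on labelled day 7, and 5 fell and 0 rose on labelled day 14. The 7.85% and 9.93% of all genes that fell, and the 6.27% and 2.75% that rose, stand as background. Ccl27a, a keratinocyte chemokine that draws T cells to skin, fell by 3.59 (SE 0.67, adjusted p = 0.0097 by limma) and by 2.10 (SE 0.67, adjusted p = 0.054). Cxadr, which binds the protein JAML on these T cells, fell by 2.17 (SE 0.49, adjusted p = 0.020) on labelled day 7. Of the butyrophilins, to which Skint proteins are related, 1 of 8 tested rose and 0 fell on labelled day 7. That gene was Btn1a1, a milk fat protein gene, which rose by 2.13 (SE 0.49, adjusted p = 0.022), and on labelled day 14 Btnl2 and Ermap fell by 2.02 and 1.26 among 7 tested.

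Estrogen was set against untreated db/db wounds to ask whether treatment moved the family. These tests share the untreated db/db arrays with the comparison that chose the members. On labelled day 7, Skint4 and Skint5 rose and the brighter Skint7 probe fell, and these were 3 of the 9 probes that were bright enough to test, where 9.92% of all probes passed an unadjusted p of 0.05 and a fold of 2. After Benjamini-Hochberg adjustment 2 of the 9 passed, where 4.84% of all probes did. The brighter Skint4 probe read −9.28 and −8.86 in db/db, both not well above background, and −5.41 and −6.73 with estrogen, both well above it. With vehicle it read −8.71 and −8.32, not well above background. The estrogen arrays lay above the other db/db arrays of that day. The probe entered the test only through the estrogen arrays, where it is high, so its place in these counts says nothing of the family.

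Since the other arrays give only background readings, the rise of Skint4 is known as a bound, at least 2.52-fold against db/db and at least 2.27-fold against vehicle. The measured signals differed by 3.0 (SE 0.54, adjusted p = 0.012 by limma) and 2.44 (SE 0.54, adjusted p = 0.044), values that rest on those readings. The probe was not tested where all arrays compared had to be well above background. Within slide 1 the rise was at least 4.46-fold against db/db and at least 4.27-fold against vehicle, and within slide 2 at least 1.43-fold and at least 1.21-fold. With normexp background correction, an alternative that compresses dim signals, the differences were 0.73 and 0.53 and no longer passed. The estrogen level was still 98.3-fold below that of WT, a difference of −6.62 given as a description. The dimmer Skint4 probe read −9.08 and −9.54 with estrogen and was not well above background, so the rise was seen on 1 of 2 probes. Skint3 and Skint11 gave nothing to test, since only 1 of their estrogen or vehicle arrays on labelled day 7 was well above background, the brighter Skint3 probe at −7.11 with estrogen.

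Skint5 read −5.76 and −4.77 in db/db and −3.13 and −3.66 with estrogen on labelled day 7, within the range of WT. It rose by 1.87 (SE 0.60, adjusted p = 0.10 by limma, past the unadjusted threshold alone), by 2.63 within slide 1 and by 1.11 within slide 2. With vehicle it read −4.80 and −3.17, a difference of 1.28 from db/db that did not pass (SE 0.60, adjusted p = 0.38). Estrogen and vehicle overlapped, and their difference of 0.59 did not pass (SE 0.60, adjusted p = 0.61). Without replicate 1 of db/db the rise with estrogen was 1.37 and without replicate 1 of estrogen it was 1.61, and neither passed.

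The brighter Skint7 probe read 5.91 and 5.82 with estrogen on labelled day 7, close to WT, against 6.83 and 7.71 in db/db and 7.21 and 7.22 with vehicle. It fell by 1.41 against db/db (SE 0.33, adjusted p = 0.038 by limma) and by 1.36 against vehicle (SE 0.33, adjusted p = 0.057). Both estrogen arrays lay below the other 4. Without replicate 2 of db/db, its fall against db/db was −0.97 and under 2-fold. Against vehicle, this probe and the brighter Skint4 probe were the 2 of 9 that passed, where 8.99% of all probes did. The brighter Skint4 probe alone passed after adjustment, where 2.56% of all probes did.

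The other 6 probes tested with estrogen on labelled day 7 did not pass. Skint1 read −3.82 and −4.26 with estrogen and −4.70 and −3.62 with vehicle, above the −6.15 and −4.78 of db/db, with differences of 1.42 (SE 0.66, adjusted p = 0.27 by limma) and 1.30 (SE 0.66, adjusted p = 0.42). The dimmer Skint7 probe read −2.80 and −3.21 with estrogen, a difference of 2.43 (SE 1.3, adjusted p = 0.34). With slide as a block in the model, these 2 probes passed too, making 5 of 9. Skint6, Skint8, Skint9 and Skint10 differed by between 0.24 and 0.76. With vehicle, 0 of 8 probes tested passed by limma, adjusted or not (lowest adjusted p = 0.38), where 4.82% of all probes passed and 0.148% passed after adjustment, and with slide as a block 1 did, which was Skint1.

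Other gene groups also moved with estrogen on labelled day 7, where 5.56% of all genes rose and 5.30% fell against db/db. Of 20 genes of wound-edge keratinocytes tested, 17 fell against db/db and 18 against vehicle, among them Krt6b by 5.04 and Krt16 by 2.82, both keratins of healing epidermis (adjusted p = 0.0012 and 0.0036 by limma). The mean level of this list was −2.04 to −1.58 on the 2 estrogen arrays and at least 1.16 on every other array. Of 26 hair follicle and sebaceous gland genes, 18 rose and 1 fell against db/db, and the mean level was −1.45 to −1.27 with estrogen against −4.18 to −3.58 in db/db. Of 30 basal and suprabasal keratinocyte genes, 6 rose and 0 fell with estrogen, and 10 rose with vehicle. Of 14 neutrophil genes, 13 fell against db/db and 9 against vehicle, and the mean level was −2.30 to −1.73 with estrogen, 3.06 to 3.80 in db/db and 0.70 to 1.13 with vehicle. The brighter Skint7 probe, which also fell, had r = 0.60 with this mean over the 12 arrays of db/db mice, and 0.64 within labelled days. With the wound-edge mean it had r = 0.45, and 0.74 within labelled days. Its r within labelled days was −0.58 with the hair follicle mean and −0.68 with the melanocyte mean, all as a description. Of 12 genes of Langerhans and dendritic cells 6 rose, and of 9 melanocyte genes 5 rose. Of 33 epidermal T cell genes, 2 rose and 4 fell with estrogen. The part of these shifts in the Skint4, Skint5 and Skint7 values was not tested.

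On labelled day 14, 0 of the 5 probes tested passed with estrogen against db/db by limma, adjusted or not (lowest adjusted p = 0.83), where 3.91% of all probes passed and 0.0991% passed after adjustment. Vehicle against db/db gave 1 of 8, where 7.51% of all probes passed, and 0 of 8 after adjustment, where 0.193% did. That probe was Skint1, which read −4.67 and −4.73 with vehicle against −6.63 and −6.92 in db/db, the last not well above background, and rose by 2.07 (SE 0.66, adjusted p = 0.17, past the unadjusted threshold alone). Its difference within slide 3, which held both db/db arrays and 1 vehicle array, was 2.11, and with normexp background correction it was 0.77 and did not pass. It entered the test only through the vehicle arrays and was not tested where all arrays had to be well above background. With estrogen Skint1 read −5.25 and −7.03, the second not well above background, and the difference from vehicle of −1.44 did not pass (SE 0.66, adjusted p = 0.87). Estrogen against vehicle gave 0 of 8, adjusted or not (lowest adjusted p = 0.87 by limma), where 0.984% of all probes passed and 0.00% passed after adjustment. Whether the treatment differences themselves changed between the labelled days was tested for each probe, and 0 members passed after adjustment. Of all probes, 0.0953% passed for estrogen against db/db, 0.00% for vehicle against db/db and 0.00979% for estrogen against vehicle. For the brighter Skint4 probe, 5 of the 8 arrays of estrogen and vehicle were not well above background, so no size is given for this change.

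**Figure D3:**
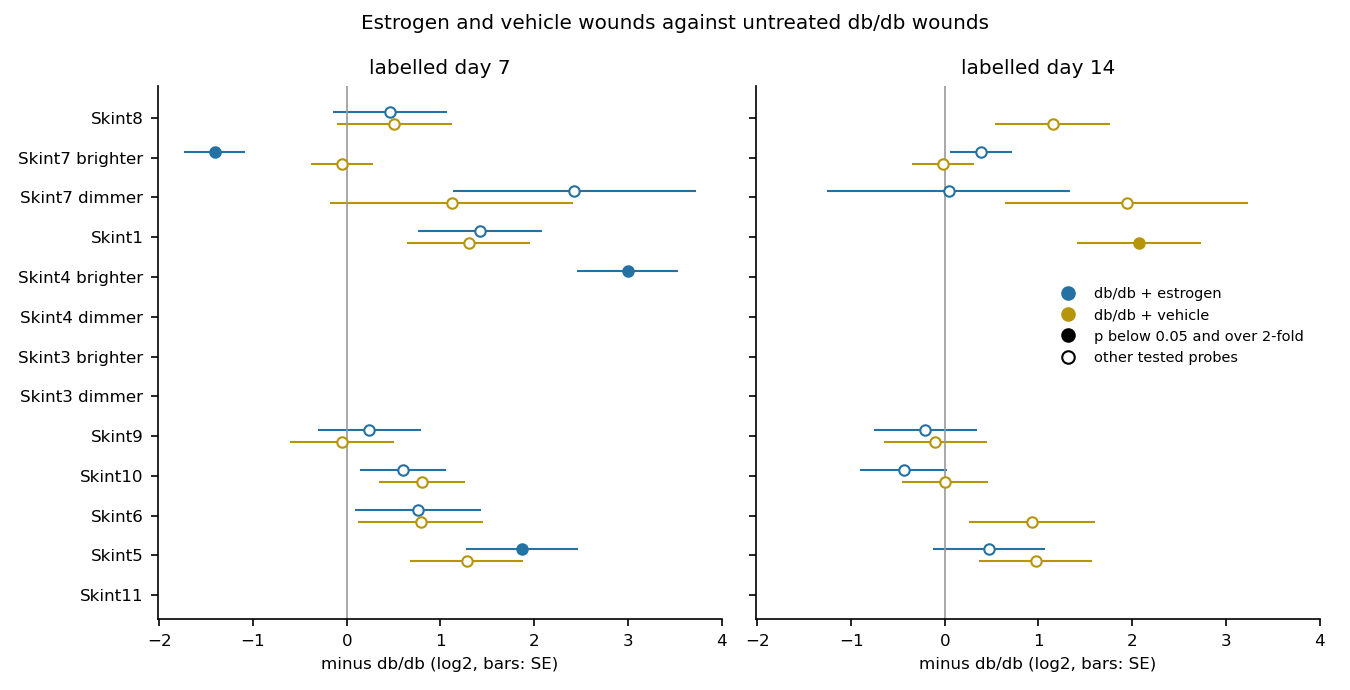
Difference of db/db + estrogen and of db/db + vehicle from untreated db/db in log2 for each Skint probe that was tested. Bars are 1 SE from the limma fit, with 1 panel for each labelled day. On labelled day 7 the brighter Skint4 probe lies at 3.0 with estrogen, a value that rests on background readings in db/db. It was not tested with vehicle and is not drawn there. The brighter Skint7 probe lies at −1.41 with estrogen and −0.05 with vehicle.

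Within WT wounds, 8 of 13 probes were lower on labelled day 14 than on labelled day 7 by an unadjusted p of 0.05 and a fold of 2, where 2.38% of all probes were. These WT arrays also entered the comparison that chose the members. None of the 13 passed after adjustment by limma (adjusted p between 0.15 and 0.83), where 5 of 30206 probes did (0.0166%). The dimmer Skint4 probe fell by 2.03 (SE 0.38, adjusted p = 0.15), with −1.50 and −1.68 on labelled day 7 against −3.02 and −4.22. Skint1, Skint5, Skint6, Skint11, the dimmer probes of Skint3 and Skint7 and the brighter probe of Skint4 were the others, with changes from −3.04 to −1.10. In each of the 8, replicate 2 of labelled day 14, the array with the lowest 75th percentile, was the lowest of the 4 WT arrays. Without it 1 of 13 passed, the dimmer Skint4 probe with −1.43. Labelled day also cannot be told apart from slide and scan, since each day was read on slides of its own. Of 25 hair follicle genes tested in WT, 9 fell and 1 rose, and of the basal and suprabasal keratinocyte genes 0 passed.

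With estrogen, 6 of 9 probes tested were lower on labelled day 14, where 10.8% of all probes were, and 2 passed after adjustment, where 7.90% of all probes did. Skint5 fell by 2.40 (SE 0.60, adjusted p = 0.032 by limma), from −3.13 and −3.66 to −5.37 and −6.21. The brighter Skint4 probe went to −8.10 and −7.86, both not well above background, a fall of at least 2.11-fold. Its measured difference of −1.91 (SE 0.54, adjusted p = 0.048) rests on those background readings, and it entered the test only through labelled day 7. Skint1, Skint6, Skint8 and the dimmer Skint7 probe passed on the unadjusted threshold alone, with measured differences from −3.57 to −1.53. All 4 were not well above background on replicate 2 of labelled day 14 and entered the test through labelled day 7, where they are high. The place of these 4 and of the brighter Skint4 probe in the counts therefore says nothing of the family. With that array at its floor, Skint6 fell at least 2.76-fold, Skint8 at least 3.16-fold and the dimmer Skint7 probe at least 8.99-fold. Where all arrays had to be well above background, 1 probe passed, which was Skint5. Without replicate 1 of labelled day 7 or replicate 2 of labelled day 14, 2 probes passed in place of 6. On the same arrays, 17 of 26 hair follicle genes were lower and 18 wound-edge keratinocyte genes higher on labelled day 14, and their part was not tested.

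In untreated db/db wounds, 2 of 8 probes tested were lower on labelled day 14, where 11.2% of all probes were, and 0 of 8 passed after adjustment, where 8.50% of all probes did. Skint8, not well above background on replicate 2 of labelled day 14, fell at least 2.52-fold (measured difference −1.85, SE 0.61, adjusted p = 0.080 by limma) and the brighter Skint7 probe by 1.01 (SE 0.33, adjusted p = 0.078). Neither passed without db/db replicate 2 of labelled day 7 or of labelled day 14. Skint1, Skint6 and Skint8 entered this test only through labelled day 7, where they are high, so their place in the counts says nothing of the family. The untreated db/db arrays also entered the comparison that chose the members. With vehicle, 0 of 8 probes passed by limma, adjusted or not, where 11.7% of all probes passed in either direction and 7.60% after adjustment. The brighter Skint7 probe, alone under an unadjusted p of 0.05, differed by −0.98 (SE 0.33, adjusted p = 0.090), just under 2-fold.

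**Figure D4:**
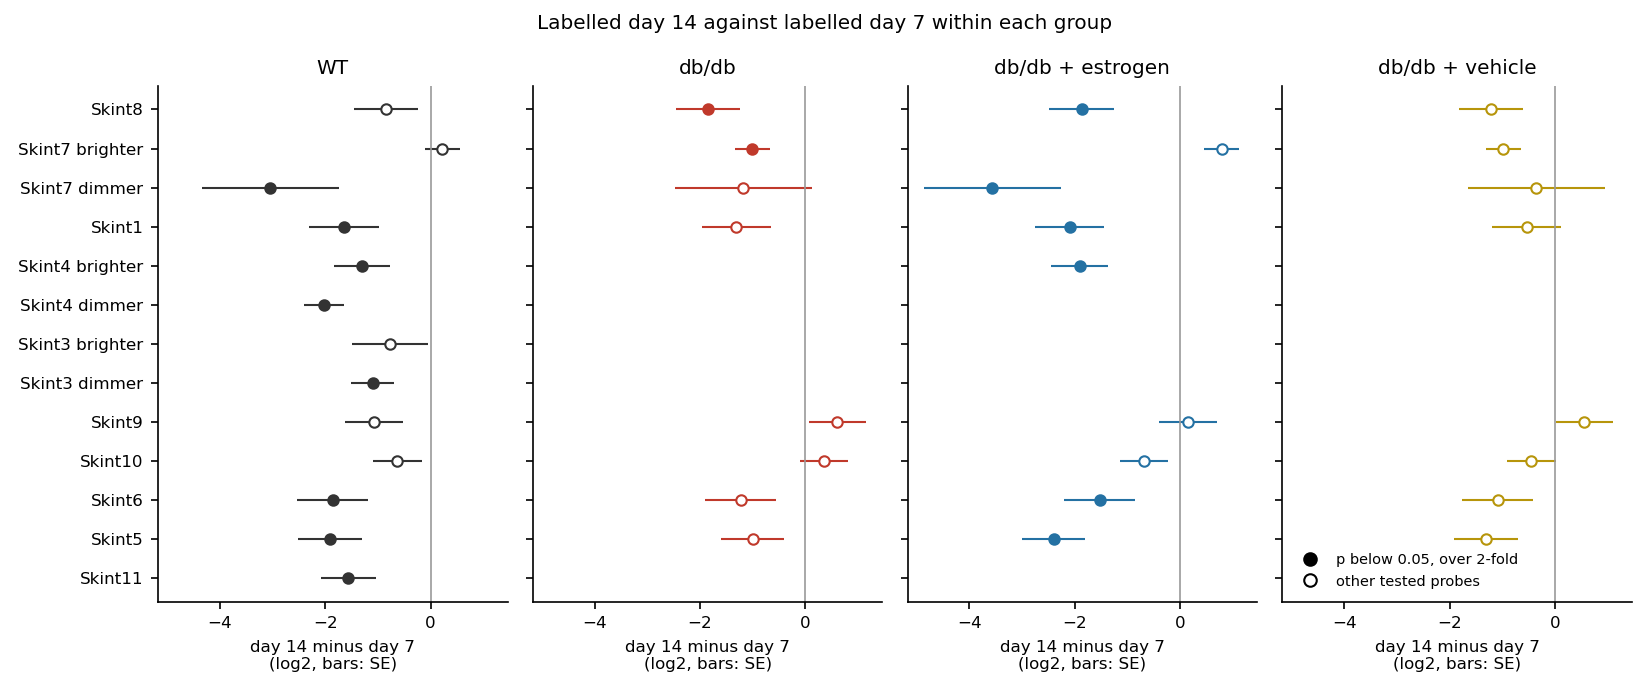
Difference of labelled day 14 from labelled day 7 in log2 for each Skint probe that was tested within each of the 4 groups of wounds. Bars are 1 SE from the limma fit. In WT the dimmer Skint4 probe lies at −2.03 and the brighter Skint7 probe at 0.22, and with estrogen Skint5 lies at −2.40.

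Over the 12 arrays of db/db mice, 5 probes went up and down together, those of Skint1, Skint5, Skint6, Skint8 and the dimmer probe of Skint7. Their 10 pairs had Pearson's r between 0.86 and 0.96, and between 0.79 and 0.96 once the mean of each labelled day was removed. Skint10 followed them less closely (r from 0.62 to 0.71). Skint9 did not (r from −0.58 to −0.18, and from 0.06 to 0.43 within labelled days), nor did the brighter Skint7 probe (r from −0.09 to 0.28, and from −0.41 to 0.01 within labelled days). These values are descriptions, since the arrays share groups, slides and the makeup of the tissue. The 5 were put together for going together on these same arrays, so the height of their r is no result. Skint1, Skint6 and Skint8 were well above background on 10 of the 12 arrays and the dimmer Skint7 probe on 11. Background readings therefore enter these r values. Skint1 and Skint5 come from different promoters of 1 group, and Skint8 and Skint7 from those of another, so the probes that went together did not all share a promoter run.

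The same 5 probes followed the mean level of hair follicle genes (r from 0.74 to 0.93), of Langerhans and dendritic cell genes (0.67 to 0.87), and of basal and suprabasal keratinocyte genes (0.56 to 0.82, and 0.74 to 0.92 within labelled days). Their correlation with epidermal T cell genes was from 0.42 to 0.71, and from 0.15 to 0.51 within labelled days. This was not particular to that list: with alpha beta T cell and lymphoid genes it was from 0.49 to 0.79, and from 0.11 to 0.40. With the keratinocyte molecules read by epidermal T cells it was from 0.68 to 0.86, and from 0.63 to 0.85 within labelled days. It was negative with endothelial genes, from −0.94 to −0.77, and from −0.85 to −0.55 within labelled days. So it was with skeletal muscle genes, from −0.57 to −0.33, and from −0.80 to −0.61 within labelled days. With wound-edge keratinocyte genes it was from −0.51 to −0.21, and from −0.27 to 0.14 within labelled days, so its sign was not kept. Among single genes, Skint1 was most like Kremen2 over the 16 arrays (r = 0.98), a membrane receptor of the Wnt pathway, and like Clca3a1 over the 12 arrays of db/db mice (r = 0.978). Skint3 on its brighter probe was most like Zfp277 (r = 0.986) and AA388235 (r = 0.984), and Skint11 was most like AA388235 (r = 0.987), all over 16 arrays that fall into WT and db/db mice.

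**Figure D5:**
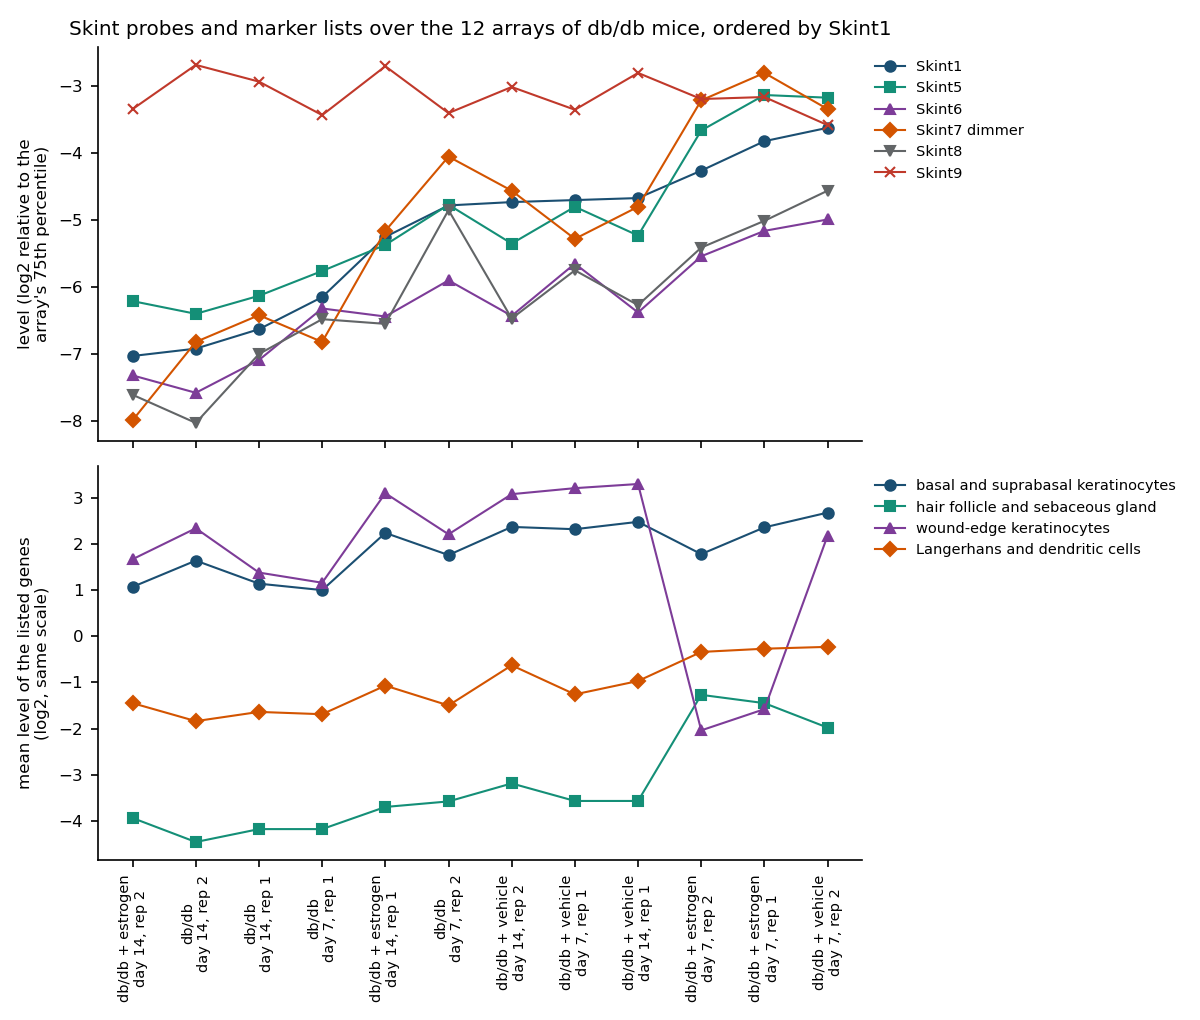
Levels of 6 Skint probes (upper panel) and mean levels of 4 marker lists (lower panel), in log2 relative to the 75th percentile, over the 12 arrays of db/db mice ordered by the level of Skint1. Skint5, Skint6, Skint8 and the dimmer Skint7 probe climb with Skint1, Skint9 does not, and the hair follicle and keratinocyte lists climb with it while the wound-edge list drops on the 2 estrogen arrays of labelled day 7.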

How the data were processed

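Wound RNA was hybridised with Cy3 to 16 arrays, in 8 groups of 2. The authors deposited scanner files made with Agilent Feature Extraction 11.0.1.1, which hold a processed intensity for each spot, corrected for background and spatial trends and not scaled between arrays, the median pixel intensity of spot and background, and flags of 0 or 1. They also deposited a table of each signal as a ratio to the 75th percentile of its array, for 34643 probes.

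Outlier spots were left out, spots of a probe were averaged, and log2 signals were set relative to the 75th percentile of the array. Each of 39429 probes was named by accession through a RefSeq table, which named 27427 of them (69.6%), and all probes of a member were kept. The members, gene lists and tests were chosen with earlier results of these data known. The gene lists were written from general knowledge and read through the brightest probe of a gene. Limma 3.58.1 (R 4.3.3) fitted 8 group means, with 8 residual degrees of freedom, to all probes, and Benjamini-Hochberg adjustment ran over the probes tested in a comparison. A probe was tested where both arrays of a compared group, or of more than 1, marked it well above background. It passed with an unadjusted two-sided p under 0.05 and over 2-fold change, after the study's methods, and the adjusted count is given beside it. A verb such as rose or fell is used for such probes. The fit was tested on simulated data. With 2 arrays against 2, an exact permutation test could not give a p below 0.333 and was not used. The number of arrays limits the precision. Named were all members, up to 4 neighbours with the largest change, defining cell markers, up to 4 genes a list with the smallest p, and the genes most like a member. Protein sequences were not used here. Alternatives were normexp correction (offset 50), quantile normalization, the authors' ratio table, other filters, slide and replicate blocks, a fit of only the arrays compared, adjustment, and leaving out each array. Promoters were aligned with Biopython 1.88.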

Additional observations from a re-analysis of the deposited data

How the results depend on the processing

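Of the results for single member probes, 235 values under another setting kept their direction. A tested difference among them also kept its side of the threshold. A difference of db/db from WT among them shifted by less than the spread between arrays of a group. A further 30 tested values no longer passed, 24 values of db/db against WT shifted by that spread or more, and 1 value changed sign. The causes were not tested unless named. Leaving out 1 array gave 154, 35 and 3 values in the first, second and last of these classes. For db/db against WT, leaving out 1 of 2 arrays cannot shift a difference by more than that spread. Those values were bound to fall in the first class unless their sign changed, so their place there says nothing of stability. The dimmer Skint7 difference on labelled day 14, for example, ran from −3.83 to −0.24. With estrogen against db/db on labelled day 7, 5 probes passed with slide as a block in place of 3, and with vehicle 1 in place of 0. Estrogen against vehicle on that day gave 1 in place of 2 after adjustment, 1 with normexp correction and 1 where all arrays had to be well above background, which leaves fewer probes to test. Vehicle against db/db on labelled day 14 gave 1, and 0 after adjustment, 0 with normexp correction, 0 with all arrays well above background, 2 with no filter, 2 with slide as a block and 3 with only the arrays compared. Between the labelled days, WT gave 8, and 0 after adjustment and 3 with only the arrays compared. Untreated db/db gave 2, and 0 after adjustment, 0 with normexp correction, 0 with quantile normalization and 1 with all arrays well above background. Estrogen gave 6, and 2 after adjustment, 3 with normexp correction and 1 with all arrays well above background. Vehicle gave 0, and 2 with no filter and 1 with only the arrays compared. Against WT, 12 and 9 probes were over 2-fold lower in db/db on labelled days 7 and 14, and 7 and 1 where all arrays had to be well above background, which leaves fewer probes to test. The Skint10 difference on labelled day 14 was 0.47 with quantile normalization in place of −0.06.

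Leaving out 1 array at a time gave, on labelled day 7, 2 to 4 probes for estrogen against db/db, 0 to 3 for vehicle against db/db (2 without db/db replicate 2, 3 without vehicle replicate 1) and 2 to 3 for estrogen against vehicle. For labelled day 14 it gave 0 to 0, 1 to 2 and 0 to 2 (2 without estrogen replicate 1). Between the days it gave 1 to 11 in WT, 0 to 3 in db/db, 2 to 6 with estrogen and 0 to 2 with vehicle. In WT the count was 2 and 3 without replicates 1 and 2 of labelled day 7. The tests of the change in treatment differences between days gave 0 to 0 throughout. The counts of probes over 2-fold lower against WT ran from 11 to 12 on labelled day 7 and from 8 to 11 on labelled day 14. On labelled day 14 the Skint9 difference ran from −1.80 to 0.44 and that of Skint10 from −0.60 to 0.48, and without db/db replicate 2 the latter was 0.03. For the 63 member results that did not pass, 17 of 482 values under another setting passed and 7 changed sign, and 17 of 252 passed and 34 changed sign when 1 array was left out.

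The replicate numbers match the slides in every group on labelled day 7, but only in the estrogen and vehicle groups on labelled day 14. Same-numbered arrays did not deviate together throughout. Their deviations from the group means correlated from −0.31 to 0.27 between groups, over 32721 probes. The highest values were 0.27 for db/db with vehicle on labelled day 7 and 0.25 for estrogen with vehicle on labelled day 14. With the replicate number as a block, the counts were 5 for estrogen and 1 for vehicle against db/db on labelled day 7, 2 for vehicle against db/db and 1 for estrogen against vehicle on labelled day 14, and 2 for vehicle between the days.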
